A study of Mus musculus with 2 samples.

Results

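The Id genes, Id1, Id2, Id3 and Id4, were examined in 2 single-cell RNA sequencing libraries of mouse aorta. They were taken by symbol from the gene lists of both libraries, where each symbol occurs on 1 row, so the set is 4 of 32285 genes: Id1 (ENSMUSG00000042745), Id2 (ENSMUSG00000020644), Id3 (ENSMUSG00000007872) and Id4 (ENSMUSG00000021379). The knock-in library came from mice labelled MGP-KI, which carry a mutated matrix Gla protein (MGP), and the other from wild-type mice. Mice of either sex went into each genotype at an age of 1 month, and 1 batch label covers both libraries. Per the labels, the adventitia was dissected away before the aortas were digested with Liberase, and cells stained by DAPI were sorted out as dead. The mutated residue and the number of mice behind each library are not known from the labels. Each genotype is 1 library, so no difference between them has a replicate check and no p-value is given. All intervals are 95% intervals of counting error only, and they leave out differences between mice, dissections and library preparations. Those of levels and ratios also leave out variation among cells beyond counting.

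Id proteins are small helix-loop-helix proteins without the basic region that contacts DNA. They pair with the widely expressed E proteins and keep them from forming DNA-binding pairs with tissue-specific basic helix-loop-helix factors, which is how they came to be named inhibitors of differentiation. The Id genes are among the most direct targets of bone morphogenetic proteins (BMPs): a BMP bound to its receptors leads to phosphorylation of SMAD1 and SMAD5, which join SMAD4 and bind GC-rich sites near Id genes. MGP, a secreted inhibitor of calcification, binds BMPs in the vessel wall, and per its title the study concerns BMP-regulated cell differentiation in the media when MGP is mutated.

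The promoters show how such letters lie around the members. RefSeq promoter sequences of assembly GRCm38.p6 matched 3 of the 4 members, and Id1 had no entry. The stretches below are the 250 bases before each gene's start, written 5′ to 3′ along the gene's own strand. Capitals mark GGCGCC, the palindrome bound by SMAD1 and SMAD5, and GTCT or its reverse complement, the short SMAD-binding tetramer.
Id2, chr12:25096093-25096342, minus strand: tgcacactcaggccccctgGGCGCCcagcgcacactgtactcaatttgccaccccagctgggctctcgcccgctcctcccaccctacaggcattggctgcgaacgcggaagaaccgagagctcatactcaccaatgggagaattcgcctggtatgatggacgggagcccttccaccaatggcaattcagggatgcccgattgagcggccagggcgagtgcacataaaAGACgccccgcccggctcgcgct
Id3, chr4:136143572-136143821, plus strand: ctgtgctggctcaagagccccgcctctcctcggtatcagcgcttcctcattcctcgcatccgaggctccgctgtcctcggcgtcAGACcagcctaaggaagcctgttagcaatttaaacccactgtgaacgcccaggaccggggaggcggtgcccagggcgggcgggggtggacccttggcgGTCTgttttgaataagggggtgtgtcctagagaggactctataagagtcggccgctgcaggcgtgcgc
Id4, chr13:48260866-48261115, plus strand: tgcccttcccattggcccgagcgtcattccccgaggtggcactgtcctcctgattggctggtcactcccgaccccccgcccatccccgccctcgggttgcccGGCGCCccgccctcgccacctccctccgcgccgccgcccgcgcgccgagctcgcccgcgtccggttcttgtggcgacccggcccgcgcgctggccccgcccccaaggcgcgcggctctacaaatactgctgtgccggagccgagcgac
GGCGCC began 231 bases before the start of Id2 and 148 bases before that of Id4, and it did not occur in the Id3 stretch. The same search on both strands found GGCGCC in 9.59% of 32851 promoter stretches of this length. GTCT occurred once before Id2, beginning 23 bases before the start, and 2 times before Id3, beginning 166 and 68 bases before it. GTCT did not occur before Id4, although 82.9% of all promoter stretches hold it. No pair of these motifs overlapped in the printed stretches. CCAAT, the letters of the CCAAT box, occurred 3 times before Id2 and 2 times before Id4, and 33.8% of all stretches hold it. Neither CACGTG, the E-box used by clock factors and held by 6.02% of stretches, nor TGACGTCA, the cAMP response element held by 1.55%, occurred in the 3 stretches. The Id2 and Id3 stretches had a GC content of 62.8% and 18 CpG dinucleotides each, and the Id4 stretch had 75.6% and 35, against medians of 52.4% and 6 over all stretches. These are matches of letters and were not tested for binding.

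The knock-in library held 85831737 UMIs (unique molecular identifiers, each standing for 1 captured RNA molecule) and the wild-type library 79626104. Filtering kept 6089 knock-in cells, whose median depth was 11653 UMIs, and 3588 wild-type cells, whose median depth was 20395.5 UMIs. The median mitochondrial share was 3.07% in knock-in and 1.87% in wild-type cells. Cells with Xist and no Y-linked UMIs, taken as female, made up 45.9% of knock-in and 32.5% of wild-type cells. Cells with Y-linked and no Xist UMIs, taken as male, made up 33.6% and 56.7%. Cells with neither (18.8% of knock-in and 8.70% of wild-type cells) or both (1.76% and 2.12%) are in no subset by sex. Only 4 cell barcodes were shared by the libraries. Clustering left out the Id genes, so their levels did not define any cluster. Smooth muscle-like cells, with all 9 smooth muscle markers at 20 CPM or more in both libraries, numbered 2338 in the knock-in and 246 in the wild-type library. Fibroblast-like cells numbered 2274 in the knock-in and 2570 in the wild-type library. The knock-in library held 294 macrophage or monocyte-like and 45 endothelial-like cells, and the wild-type library 353 and 64. Although the labels say the adventitia was removed, all 8 fibroblast markers stood at 20 CPM or more in the fibroblast-like class of each library.

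Each Id gene had its own distribution over the aortic cell classes. Levels are given in CPM, counts per 1000000 UMIs of the same cells. They are compared for 1 gene across classes and not between genes.

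Id1, a BMP target prominent in endothelium, stood highest in endothelial-like cells, at 447 CPM (388 to 512) in the knock-in and 517 CPM (471 to 567) in the wild-type library. Smooth muscle-like cells followed with 178 CPM (173 to 182) in the knock-in and 134 CPM (124 to 145) in the wild-type library. Fibroblast-like cells had 79.6 CPM (76.5 to 82.9) in the knock-in and 81.6 CPM (79.2 to 84.0) in the wild-type library. Macrophage or monocyte-like cells had 3.29 CPM (1.70 to 5.75) in the knock-in and 2.21 CPM (1.14 to 3.86) in the wild-type library, from 12 UMIs in each. The intervals of these 4 classes did not overlap within either library, so the order of Id1 levels was the same in both.

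Id2, which acts in the development of lymphoid and dendritic cells, was the most evenly spread over these 4 classes and the only member above 100 CPM in macrophages. Smooth muscle-like cells had 316 CPM (310 to 322) in the knock-in and 280 CPM (265 to 296) in the wild-type library. Endothelial-like cells had 273 CPM (228 to 326) in the knock-in and 230 CPM (200 to 264) in the wild-type library. Macrophage or monocyte-like cells had 172 CPM (159 to 186) in the knock-in and 135 CPM (126 to 145) in the wild-type library. Fibroblast-like cells had 164 CPM (160 to 169) in the knock-in and 152 CPM (149 to 155) in the wild-type library. In the knock-in library smooth muscle-like could not be told from endothelial-like cells, nor macrophage or monocyte-like from fibroblast-like cells, beyond counting error. In the wild-type library all 4 intervals stood apart and fibroblast-like cells ranked above macrophage or monocyte-like cells.

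Id3 filled the stroma and the endothelium. Fibroblast-like cells had 1246 CPM (1233 to 1259) in the knock-in and 1142 CPM (1133 to 1151) in the wild-type library. Endothelial-like cells had 998 CPM (909 to 1094) in the knock-in and 1240 CPM (1168 to 1315) in the wild-type library. Fibroblast-like cells thus ranked first in the knock-in and endothelial-like cells first in the wild-type library. Smooth muscle-like cells had 759 CPM (749 to 768) in the knock-in and 781 CPM (756 to 807) in the wild-type library. Macrophage or monocyte-like cells had 38.7 CPM (32.6 to 45.6) in the knock-in and 59.4 CPM (53.0 to 66.2) in the wild-type library. Free RNA, estimated from barcodes of 1 to 100 UMIs, held Id3 at 1551 CPM in the knock-in and 1494 CPM in the wild-type library. The free RNA share of macrophage or monocyte-like barcodes was set at the largest that markers of other cell types allowed. This was 1.17% in the knock-in library, from smooth muscle markers, and 1.22% in the wild-type library, from pericyte markers. With it subtracted, 20.8 CPM of Id3 remained in knock-in and 41.6 CPM in wild-type macrophages, to be read as lower limits.

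Id4, studied mostly in the developing brain, was found among the 4 classes compared mainly in smooth muscle-like and fibroblast-like cells. Outside these classes, the unnamed cluster led by Mdga2, described below, had 92.2 CPM (80.1 to 105.6) in the knock-in and 61.5 CPM (46.5 to 79.9) in the wild-type library. Smooth muscle-like cells had 73.8 CPM (70.8 to 76.9) in the knock-in and 47.9 CPM (41.8 to 54.6) in the wild-type library. Fibroblast-like cells had 37.9 CPM (35.8 to 40.2) in the knock-in and 31.5 CPM (29.999 to 33.0) in the wild-type library. Endothelial-like cells held 2 UMIs in each library, and macrophage or monocyte-like cells 0 UMIs in the knock-in and 4 in the wild-type library. A count of 0 allows up to 0.823 CPM in the knock-in macrophages, so no ratio is given for Id4 in these classes.

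**Figure D1:**
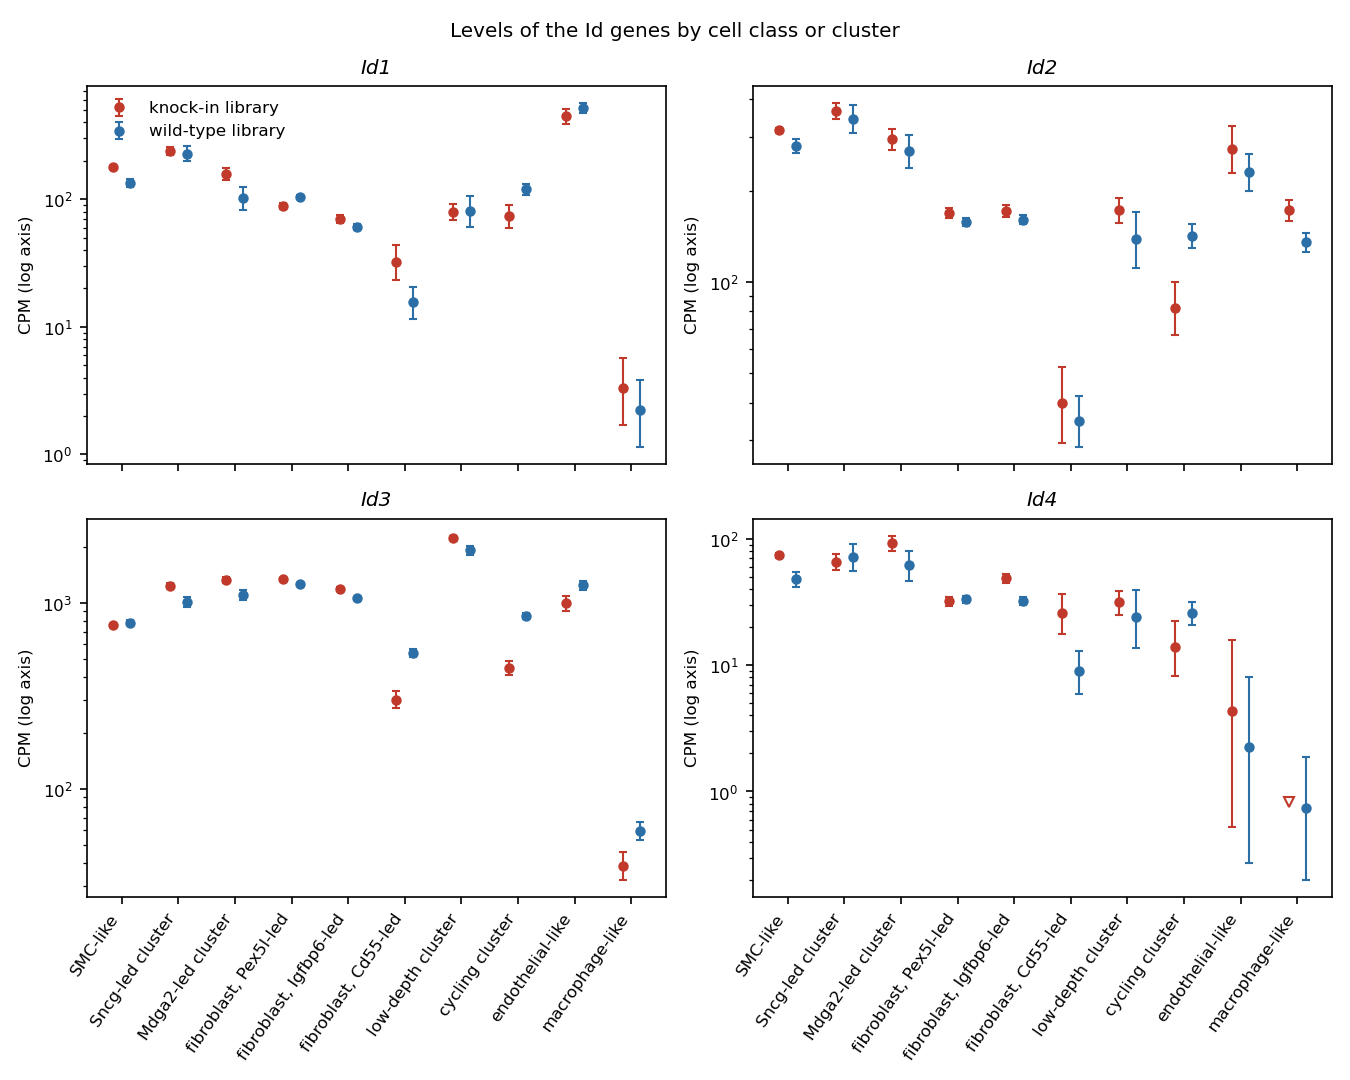
CPM of each Id gene on a log axis by cell class or cluster, knock-in left (red) and wild-type right (blue); bars are exact Poisson 95% intervals and open triangles mark the limit that a count of 0 allows. Id1 is highest in endothelial-like cells, at 447 CPM in the knock-in and 517 CPM in the wild-type library, Id4 is at 0 knock-in and 4 wild-type UMIs in macrophages, and Id2 stays within 135 to 316 CPM over the 4 named classes.

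In smooth muscle-like cells, the cells of the media that the study is about, Id1, Id2 and Id4 were higher in the knock-in library and Id3 was not. Id4 had the largest ratio of knock-in over wild-type, 0.62 on the log2 scale (0.42 to 0.83), from 2267 UMIs in the knock-in and 223 in the wild-type cells. Id1 stood at 0.40 (0.28 to 0.53), from 5460 UMIs in the knock-in and 625 in the wild-type cells. Id2 stood at 0.17 (0.09 to 0.26), from 9710 UMIs in the knock-in and 1306 in the wild-type cells. Id3 stood at -0.04 (-0.09 to 0.01), beside a median of -0.04 over all genes in these cells. Of the 12058 genes with at least 50 UMIs over both libraries, 7.31% had a higher ratio than Id4, 13.4% a higher one than Id1 and 27.6% a higher one than Id2. By a limit of 1.5-fold, 1 of the 4 members (Id4) counted as higher and 0 as lower. The same limit called 15.7% of all 12058 genes, 8.08% as higher and 7.59% as lower, so a ratio like that of Id4 was not rare among them. The smooth muscle-like cells had a median depth of 12237.5 UMIs in the knock-in and 17843 in the wild-type library, and fibroblast markers summed to 2402 CPM in the knock-in and 3775 CPM in the wild-type cells of the class. The depth gap was followed through depth bands, and the part of the fibroblast markers in the ratios was not tested.

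In fibroblast-like cells the ratios were smaller. Id4 stood at 0.27 (0.16 to 0.38), Id3 at 0.13 (0.11 to 0.14), Id2 at 0.12 (0.06 to 0.17) and Id1 at -0.03 (-0.11 to 0.04), beside a median of -0.05 over all genes. None of the 4 reached 1.5-fold, against 14.5% of the 14027 genes measured there, 7.77% as higher and 6.72% as lower. The narrow interval of Id3 comes from 37626 UMIs in the knock-in and 64009 in the wild-type cells. It does not cover the depth of the cells: the class had a median of 12530 UMIs in the knock-in and 21847 in the wild-type library, and Id3 changed side with depth, as given below.

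In endothelial-like cells, Id3 stood at -0.31 (-0.47 to -0.16), Id1 at -0.21 (-0.45 to 0.03) and Id2 at 0.25 (-0.08 to 0.58), with Id1 on 206 UMIs in the knock-in and 463 in the wild-type cells. With 45 knock-in and 64 wild-type cells, the intervals of Id1 and Id2 include 0. None of the 3 measured members reached 1.5-fold, against 18.7% of 4560 genes. Of 6 lymphatic endothelial markers, 3 stood at 20 CPM or more in the knock-in cells, with a sum of 119 CPM, against 5 in the wild-type cells, with a sum of 932 CPM. The part of this difference in the ratios was not tested.

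Macrophage or monocyte-like cells gave opposite signs for their 2 measured members. Id2 stood at 0.35 (0.19 to 0.50), from 627 UMIs in the knock-in and 734 in the wild-type cells. Id3 stood at -0.62 (-0.91 to -0.33), from 141 UMIs in the knock-in and 322 in the wild-type cells. Id3 counted as lower by the 1.5-fold limit, which called 5.93% of 9441 genes as lower and 10.8% in either direction. Of these genes, 94.8% had a higher ratio than Id3. Erythroid markers summed to 708 CPM in the knock-in cells of this class, with 3 of 5 at 20 CPM or more, and to 0.184 CPM in the wild-type cells, with 4 of 5 at 0. Neutrophil markers summed to 63.1 CPM in the knock-in cells, with 5 of 6 at 0, and to 195 CPM in the wild-type cells, with 1 of 6 at 0. The part of either list in the ratios was not tested. Without doublet removal the ratio of Id3 was -0.23, and with the largest allowed share of free RNA subtracted it was -1.001. Most cells of this class had 8000 to 20000 UMIs, where Id2 stood at 0.89 (0.70 to 1.08) and Id3 at -0.87 (-1.22 to -0.54). In the 19 knock-in and 71 wild-type cells above that depth, Id2 stood at -1.01 (-1.48 to -0.57) and Id3 at 0.30 (-0.40 to 0.96).

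Over all cells together the ratios were 0.53 for Id1 (0.48 to 0.58), 0.56 for Id2 (0.52 to 0.59), -0.03 for Id3 (-0.05 to -0.02) and 0.80 for Id4 (0.72 to 0.87). These sums mix classes in different proportions, since smooth muscle-like cells made up 2338 of 6089 knock-in but 246 of 3588 wild-type cells. In each named class the ratio of Id2 was below 0.56, and that of Id1 in the classes where it was measured was at most 0.40.

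**Figure D2:**
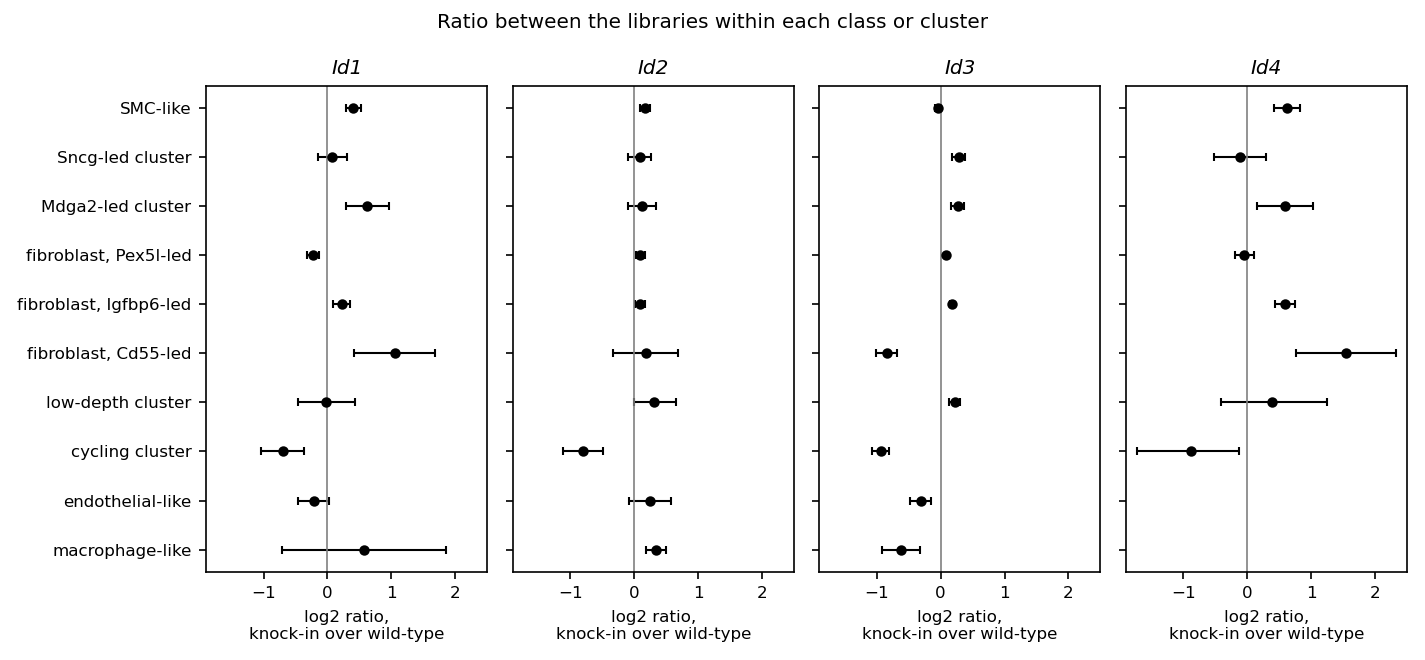
Log2 ratio of knock-in over wild-type CPM for each Id gene (x axis) within each class or cluster (rows), with exact conditional binomial 95% intervals; pairs with under 10 UMIs in a library are left out. Id4 stands at 0.62 and Id1 at 0.40 in smooth muscle-like cells, while Id3 lies near 0 there and at -0.62 in macrophage or monocyte-like cells.

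Clusters left unnamed carried the members at levels of their own. The cluster led by Sncg, Timp4 and Sparcl1, with all 9 smooth muscle markers at 20 CPM or more, held 234 knock-in and 48 wild-type cells. Id1 stood there at 241 CPM in the knock-in and 228 CPM in the wild-type library, above the level of the smooth muscle-like class in each. Its ratio was 0.08 (-0.14 to 0.30) for Id1, -0.12 (-0.52 to 0.30) for Id4, 0.09 (-0.09 to 0.27) for Id2 and 0.28 (0.18 to 0.39) for Id3. The pattern of the smooth muscle-like class, with Id4 and Id1 above Id3, was therefore not seen in these cells, and the difference between the clusters was not tested. None of the 4 reached 1.5-fold, against 16.8% of the genes measured in this cluster. The cluster led by Mdga2, Adamtsl1 and Cacna2d3, with 8 of 9 smooth muscle and all 8 fibroblast markers at 20 CPM or more in each library, held 193 knock-in and 57 wild-type cells. Its ratios were 0.62 (0.29 to 0.97) for Id1, 0.58 (0.15 to 1.04) for Id4, 0.27 (0.16 to 0.37) for Id3 and 0.13 (-0.09 to 0.34) for Id2. Id1 passed 1.5-fold, as did 7.89% of genes in the same direction. At 1333 CPM in the knock-in and 1107 CPM in the wild-type library, Id3 was closer there to the fibroblast-like than to the smooth muscle-like level. A cluster of shallow cells held 650 knock-in and 123 wild-type cells, with medians of 2917.5 UMIs in the knock-in and 3380 in the wild-type library. It had the highest Id3 level of all, 2238 CPM in the knock-in and 1921 CPM in the wild-type library. Its best marker score was for fibroblasts, with all 8 fibroblast markers at 20 CPM or more over both libraries together. A rule on depth left it unnamed, so its cells are not part of the fibroblast-like ratios.

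The fibroblast-like class was made of 3 clusters in which the members differed. In the cluster led by Pex5l, Fmod and Ccn5 (1326 knock-in and 1342 wild-type cells) Id1 had 88.5 CPM in the knock-in and 103 CPM in the wild-type library, a ratio of -0.23 (-0.31 to -0.14). In the cluster led by Igfbp6, Ly6a and Hmcn2 (893 knock-in and 1101 wild-type cells) Id1 had 70.6 CPM in the knock-in and 60.6 CPM in the wild-type library, a ratio of 0.22 (0.09 to 0.35). Id1 thus went opposite ways in the 2 large clusters and came out near 0 in the class. Id4 likewise stood at -0.05 (-0.20 to 0.10) in the first and at 0.59 (0.43 to 0.75) in the second, where it had 48.6 CPM in the knock-in and 32.2 CPM in the wild-type library. It was the 1 member past 1.5-fold in the second cluster, where 5.1% of genes passed as higher, and none passed in the first, where 15.4% of genes did. Id2 was alike in both, at 0.10 and 0.09, and Id3 stood at 0.09 and 0.18. The cluster led by Cd55, Nav3 and Aldh1a3, with 55 knock-in and 127 wild-type cells, had the lowest level of every member among the 3 clusters. For Id4 in the knock-in library, its 26.0 CPM (17.8 to 36.6) overlapped the 32.1 CPM (29.6 to 34.9) of the Pex5l-led cluster. Id1 had 32.4 CPM in the knock-in and 15.6 CPM in the wild-type library there, and Id3 302 CPM in the knock-in and 540 CPM in the wild-type library. Its ratios were 1.05 (0.41 to 1.69) for Id1, on 40 knock-in and 49 wild-type UMIs, and 1.54 (0.76 to 2.32) for Id4, on 32 knock-in and 28 wild-type UMIs. Id3 stood at -0.84 (-1.01 to -0.68) there. So 2 members passed 1.5-fold as higher and 1 as lower, against 7.27% of genes as higher and 9.25% as lower. At finer clustering the cluster led by the same 3 genes held 45 knock-in and 122 wild-type cells, and Id1 had 5 knock-in and 47 wild-type UMIs, a ratio of -1.53 (-3.22 to -0.21). Most of the 40 knock-in UMIs of Id1 thus lay in cells that finer clustering put elsewhere, while Id3 kept its sign at -1.02 (-1.22 to -0.82).

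The cycling cluster, led by histone genes, Ube2c and Top2a, had 61 knock-in and 119 wild-type cells. All 4 members were lower in the knock-in library there, from -0.69 for Id1 to -0.94 for Id3. Its make-up differed: T or NK cell markers summed to 2063 CPM in the knock-in and 34.7 CPM in the wild-type cells, fibroblast markers to 7050 CPM in the knock-in and 22984 CPM in the wild-type cells, and 29.9% of 8965 genes were at least 1.5-fold lower, as were all 4 members. Among cells with no UMI of Cd3e, Cd3d, Cd3g or Trbc2, a restriction chosen after the data were seen, 31 knock-in and 115 wild-type cells remained. Their ratios were 0.08 (-0.33 to 0.46) for Id1, 0.22 (-0.14 to 0.57) for Id2, -0.06 (-0.22 to 0.09) for Id3 and 0.38 (-0.49 to 1.17) for Id4, and each interval includes 0.

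The smooth muscle-like ratios were followed in subsets of its cells. Id4 stood at 0.69 (0.37 to 1.03) in female cells and at 0.50 (0.22 to 0.78) in male cells. It stood at 0.46 (0.20 to 0.74) in cells of 8000 to 20000 UMIs and at 0.82 (0.50 to 1.15) in deeper cells. Cells under 8000 UMIs, 154 in the knock-in and 9 in the wild-type library, gave -0.34 (-1.77 to 1.58) on 4 wild-type UMIs. Id1 stood at 0.30 (0.12 to 0.48) in female cells and at 0.25 (0.08 to 0.43) in male cells, below the 0.40 of the whole class. Female smooth muscle-like cells had more Id1 than male ones in each library, 196 against 148 CPM in the knock-in and 159 against 124 CPM in the wild-type library, and they were 1370 of 2338 knock-in but 97 of 246 wild-type cells. The parts of this difference in sex make-up, and of the cells given no sex, in the pooled ratio were not tested. For Id2 the female cells gave 0.12 (-0.01 to 0.25) and the male cells 0.25 (0.12 to 0.37). Id3 stayed between -0.10 and -0.05 in the sexes and in the bands above 8000 UMIs.

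Cells with a UMI of Hoxa9, Hoxa10, Hoxc9 or Hoxc10, genes that mark posterior positions along the body, numbered 55 in the knock-in and 20 in the wild-type smooth muscle-like class. In these cells Id1 stood at 1.14 (0.49 to 1.84), with 152 CPM in the knock-in and 69.3 CPM in the wild-type library, and Id4 at 0.03 (-0.86 to 0.98). Cells without such a UMI gave 0.35 (0.23 to 0.48) for Id1 and 0.63 (0.43 to 0.84) for Id4. Finer clustering split the smooth muscle-like cells by Kctd16, Mylk4 and Dmd on one side and Tcap, Acta2 and Myl9 on the other. Id1 stood at 0.08 (-0.09 to 0.26) in the Kctd16-led cells and at 0.62 (0.41 to 0.84) in the Tcap-led cells, where it had 204 CPM in the knock-in and 133 CPM in the wild-type library. Id4 stood at 0.58 (0.27 to 0.90) and 0.41 (0.07 to 0.77) in the same clusters. An unnamed cluster led by Cdh6, Emb and Dmd, with 538 knock-in and 32 wild-type cells, gave 0.37 (0.08 to 0.68) for Id1 and 0.44 (0.03 to 0.89) for Id4. The interval of Id4 lay above 0 in all 3 clusters and that of Id1 in the Tcap-led and Cdh6-led ones.

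Among fibroblast-like cells the subsets disagreed more. Female cells gave -0.05 (-0.21 to 0.12) for Id4, whereas male cells gave 0.60 (0.44 to 0.76). Female cells gave -0.21 (-0.33 to -0.10) for Id1, whereas male cells gave 0.10, with an interval that reaches 0. Id3 stood at -0.06 (-0.09 to -0.04) in cells of 8000 to 20000 UMIs and at -0.42 (-0.46 to -0.38) in deeper cells. Of the depth bands only cells under 8000 UMIs had a positive ratio, 0.14 (0.06 to 0.23). Their Id3 level was the highest, 2032 CPM in the knock-in and 1841 CPM in the wild-type library. Such shallow cells were 443 of 2274 knock-in and 140 of 2570 wild-type cells. The part of the differing depth make-up in the ratio over the class was not tested.

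In macrophage or monocyte-like cells the ratio of Id2 was -0.05 (-0.30 to 0.19) among females' cells and 0.59 (0.37 to 0.81) among males' cells. At finer clustering, Id2 in the cluster led by F13a1, C1qa and Mrc1 stood at 0.80 (0.62 to 0.99), with 168 CPM in the knock-in and 96.7 CPM in the wild-type library. In the cluster led by H2-Ab1, Lyz1 and H2-Eb1, genes of antigen-presenting and myeloid cells, with 23 knock-in and 52 wild-type cells, Id2 had 199 CPM in the knock-in and 300 CPM in the wild-type library, a ratio of -0.60 (-0.96 to -0.25). Id3 was lower in the knock-in cells of both sexes, with -0.97 (-1.44 to -0.52) for females and -0.23 (-0.66 to 0.19) for males, and the interval of the male cells includes 0.

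**Figure D3:**
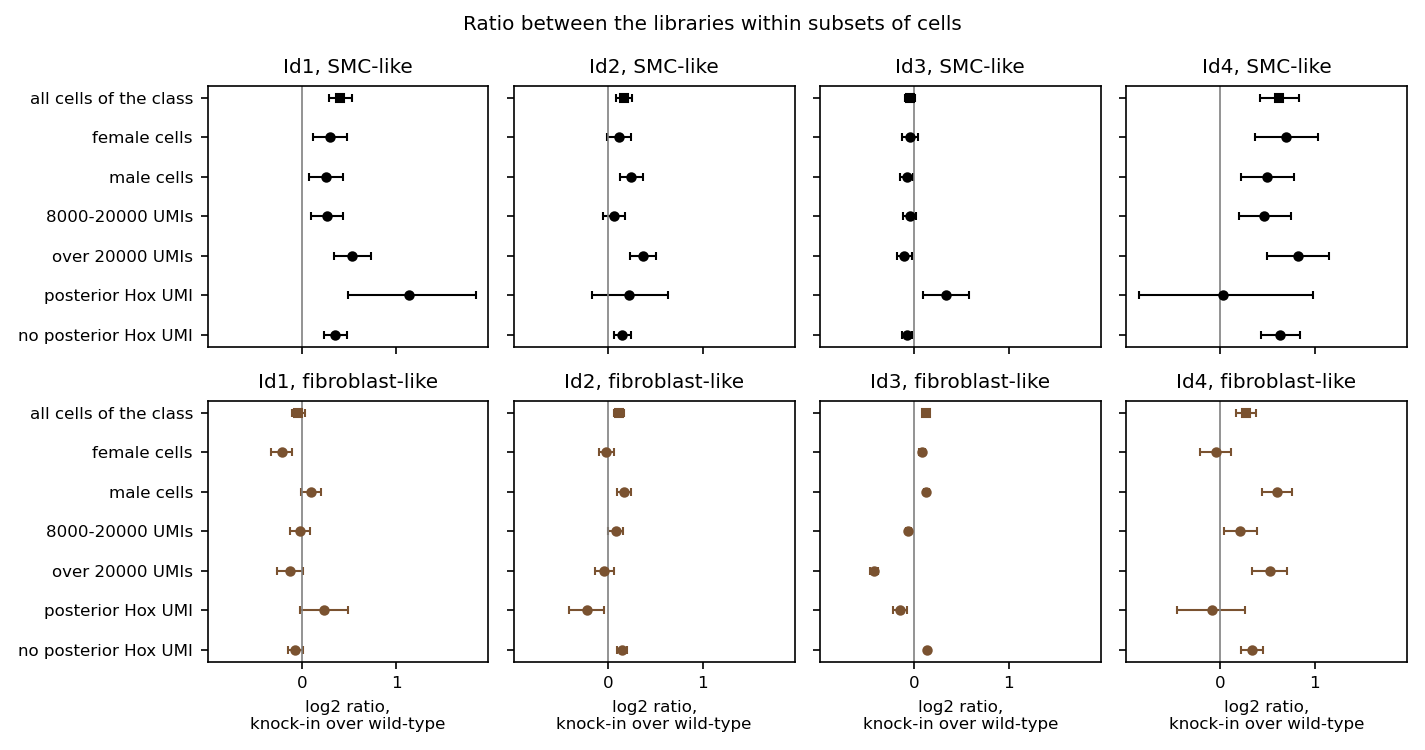
Log2 ratio of knock-in over wild-type CPM for each Id gene in smooth muscle-like (top) and fibroblast-like cells (bottom), for the whole class (square) and for subsets by sex, depth and posterior Hox UMIs (circles), with 95% intervals. In smooth muscle-like cells Id4 lies between 0.46 and 0.82 in the plotted subsets other than the small posterior Hox one, whereas in fibroblast-like cells it stands at -0.05 in female and 0.60 in male cells.

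Shares of cells with a UMI were compared after each cell was thinned to 5000 UMIs. Thinning is random: the shares come from the same draw, and their intervals leave out variation between draws. In smooth muscle-like cells, Id4 was seen in 28.5% (26.6 to 30.3) of 2312 knock-in and 19.0% (14.3 to 24.5) of 242 wild-type cells. Id1 was seen in 47.5% (45.4 to 49.6) of knock-in and 43.0% (36.7 to 49.5) of wild-type cells, and Id2 in 70.7% (68.8 to 72.5) of knock-in and 63.6% (57.2 to 69.7) of wild-type cells. Id3 was seen in 90.3% (89.0 to 91.5) of knock-in and 89.3% (84.7 to 92.9) of wild-type cells. Other draws on the same cells gave Id4 in 600 knock-in and 45 wild-type cells, and Id2 in 1591 knock-in and 161 wild-type cells. In the draw given here the Id4 intervals stood apart, whereas those of the other members overlapped. The separation did not hold at 2000 UMIs, where Id4 was seen in 12.7% (11.4 to 14.1) of knock-in and 8.94% (5.69 to 13.2) of wild-type cells, nor without thinning. The thinning left out 26 knock-in and 4 wild-type cells. Without it Id4 was seen in 47.3% of knock-in and 43.9% of wild-type cells, and Id1 in 68.8% of knock-in and 71.1% of wild-type cells.

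In fibroblast-like cells Id1 was seen in 23.4% of knock-in and 26.0% of wild-type cells, and Id4 in 14.5% of knock-in and 13.0% of wild-type cells. Id2 was seen in 41.6% of knock-in and 40.6% of wild-type cells, and Id3 in 93.6% of knock-in and 94.0% of wild-type cells. In this draw the intervals of the 2096 knock-in and 2512 wild-type cells that could be thinned overlapped for all 4 members. Another draw on the same cells gave Id4 in 324 knock-in and 311 wild-type cells, and Id1 in 522 and 616. Macrophage or monocyte-like cells give the background of Id1 and Id4: Id1 was seen in 2.45% (0.99 to 4.98) of 286 knock-in and 1.47% (0.48 to 3.39) of 341 wild-type cells, and Id4 in 0 knock-in cells, which allows a share of cells with a UMI of up to 1.05% and sets no limit on cells that express it, and 1 wild-type cell. The median depths of that class were 11494.5 UMIs in the knock-in and 15003 in the wild-type library. Id3 was seen in 12.9% (9.27 to 17.4) of knock-in and 24.0% (19.6 to 28.9) of wild-type macrophages, and Id2 in 31.1% of knock-in and 30.8% of wild-type macrophages. A further draw gave Id3 in 34 of 286 knock-in and 65 of 341 wild-type macrophages, and Id2 in 84 and 109. The size of the Id3 gap thus depended on the draw. The higher Id2 level of the knock-in macrophages was thus not matched by a larger share of cells with an Id2 UMI.

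Most smooth muscle-like cells held several members at once. After thinning, 11.2% of knock-in and 8.68% of wild-type cells had UMIs of all 4, 33.8% of knock-in and 28.1% of wild-type cells of 3, and 2.21% of knock-in and 4.96% of wild-type cells of none. In macrophages 58.4% of knock-in and 53.1% of wild-type cells had none. An Id4 UMI was seen in 32.7% of knock-in smooth muscle-like cells that held an Id1 UMI and 24.6% of those that did not, and in 26.0% of wild-type cells with and 13.8% without one. Another draw on the same cells gave 31.5% and 24.1% in the knock-in and 21.9% and 16.8% in the wild-type library. The size of the wild-type contrast thus depended on the draw. Cells with all 4 members were 10.3% of knock-in and 7.44% of wild-type cells in that other draw. These shares describe cells of 1 library each, and cells thinned to equal depth still differ in state.

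**Figure D4:**
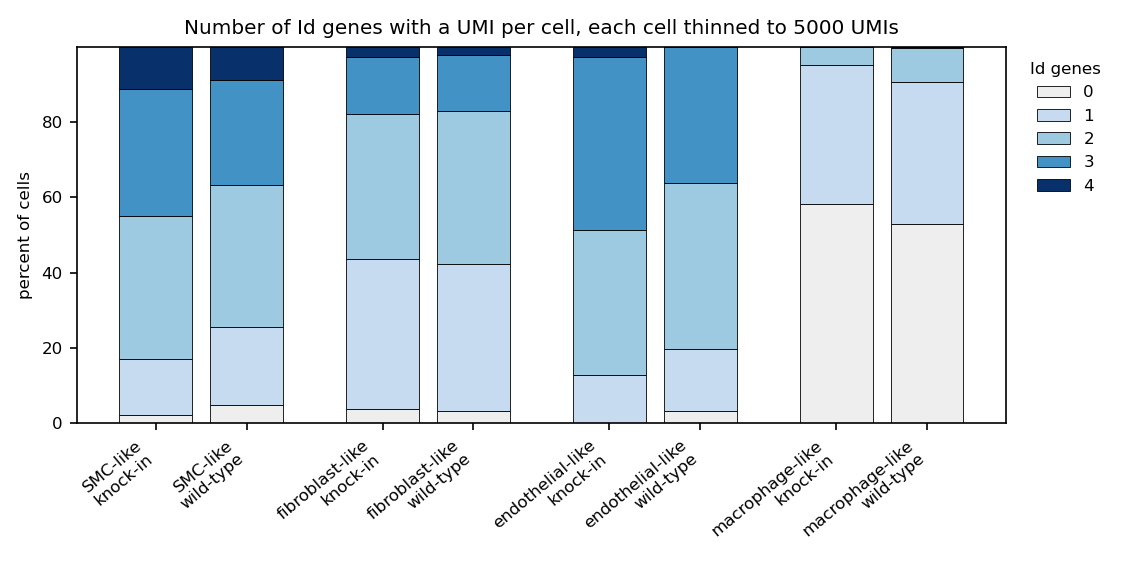
Percent of cells (y axis) with UMIs of 0 to 4 Id genes after thinning to 5000 UMIs, by class and library, knock-in left of wild-type; darker shades mean more Id genes. In the random draw shown, cells with all 4 make up 11.2% of knock-in and 8.68% of wild-type smooth muscle-like cells, and cells with none 58.4% of knock-in and 53.1% of wild-type macrophage or monocyte-like cells.

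The spread of Id UMIs over smooth muscle-like cells exceeded that of counting alone, for which the variance equals the mean. The variance over the mean of the thinned UMIs was 2.82 in knock-in and 3.16 in wild-type cells for Id3. It was 1.82 (knock-in) and 1.63 (wild-type) for Id1, and 1.39 (knock-in) and 1.27 (wild-type) for Id4. The most extreme knock-in cell held 28 Id3 UMIs of 5000, where the median cell held 3. In fibroblast-like cells the variance over the mean of Id3 was 4.69 in the knock-in and 4.11 in the wild-type library. The intervals of levels and ratios leave out this spread among cells and are narrower than it would make them.

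The rest of the BMP pathway was set beside the members in smooth muscle-like cells. Of 10 other BMP target genes, 7 had at least 50 UMIs, 5 of them were at least 1.5-fold higher in the knock-in library and 0 lower, against 8.08% of all measured genes as higher and 7.59% as lower. Their median log2 ratio was 0.66. Medians and calls of lists, and of all genes, were taken with 0.5 added to each UMI sum, which lowers the ratios of sparse genes, while the ratios given for single genes have nothing added. Smad7, an inhibitory SMAD induced as feedback, had 168 CPM in the knock-in and 99.6 CPM in the wild-type library, a ratio of 0.76 (0.62 to 0.90). Atoh8, a basic helix-loop-helix factor induced by BMP in endothelium, stood at 0.82 (0.52 to 1.14). Smad6, the other inhibitory SMAD, stood at 0.57 (0.28 to 0.87), just under the limit. Bambi, a decoy receptor, stood at -0.09 (-0.24 to 0.06). Of the 5, Msx1 and Hey1 had intervals that include 0, at 0.68 (-0.04 to 1.49) and 0.71 (-0.08 to 1.61). The Id genes' own median was 0.29. Smad7, Smad6 and Bambi also respond to other pathways, TGF-beta among them.

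Upstream of the targets, of 9 receptors and co-receptors 0 passed the limit, with a median of 0.12. Bmpr1a, a type I receptor, had 335 CPM in the knock-in and 309 CPM in the wild-type library (0.12, 0.04 to 0.20), Bmpr1b, another type I receptor, stood at 0.02, and Bmpr2, the type II receptor, 154 CPM in the knock-in and 122 CPM in the wild-type library (0.34, 0.21 to 0.46). Of the 3 signal SMADs (Smad1, Smad5 and Smad4) 0 passed, from -0.17 to 0.01. Of 12 ligands 5 were measured, 3 as higher and 1 as lower, set against the same 8.08% and 7.59% of all genes, as are the counts of the other lists in these cells. Bmp2 had 19.4 CPM in the knock-in and 12.5 CPM in the wild-type library (0.64, 0.25 to 1.05), and Bmp3 11.4 CPM in the knock-in and 12.0 CPM in the wild-type library. Of 14 antagonists 9 were measured, 1 as higher and 2 as lower, with a median of 0.08. The lower ones were Fst, on 144 knock-in and 54 wild-type UMIs (-1.31, -1.77 to -0.83), and Chrdl1, on 75 knock-in and 21 wild-type UMIs (-0.89, -1.60 to -0.11). Mgp itself, for which mutated and wild-type transcripts are counted alike, had 6627 CPM in the knock-in and 4660 CPM in the wild-type library (0.51, 0.49 to 0.53). Sost stood at 0.56 (0.50 to 0.62) and Twsg1, which binds BMPs and chordin, at 0.58 (0.47 to 0.69).

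None of the E proteins, the binding partners of Id proteins, passed the limit as higher in smooth muscle-like cells. Of the 3 E proteins, Tcf12 had 125 CPM in the knock-in and 145 CPM in the wild-type smooth muscle-like cells (-0.22, -0.34 to -0.10). Tcf4 stood at 0.06 (-0.10 to 0.22), and Tcf3 had 12.3 CPM in the knock-in and 21.9 CPM in the wild-type cells (-0.83, -1.15 to -0.50). Only Tcf3 passed the limit, as lower. Of 15 tissue-specific basic helix-loop-helix factors 9 were measured, 2 as higher and 3 as lower. Hes1, a Notch target, had 111 CPM in the knock-in and 51.1 CPM in the wild-type library (1.11, 0.92 to 1.31). Heyl, another Notch target, stood at -0.01 (-0.17 to 0.16) and Hey2 at 0.46 (0.25 to 0.68). Scx, a factor of tendon and ligament cells, had 23.1 CPM in the knock-in and 69.1 CPM in the wild-type library (-1.58, -1.77 to -1.39). Of 6 cyclin-dependent kinase inhibitors, which Id proteins repress in other cells, 5 were measured, 0 as higher and 2 as lower. Cdkn1a had 53.3 CPM in the knock-in and 179 CPM in the wild-type library (-1.75, -1.87 to -1.63). Cdkn1b stood at 0.03 (-0.15 to 0.22).

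In fibroblast-like cells the other BMP targets, like the members, stayed within the limit: 9 of 10 were measured, 0 passed in either direction, and their median was 0.08. Tmem100 had 120 CPM in the knock-in and 141 CPM in the wild-type library (-0.24, -0.29 to -0.18), and Smad7 stood at -0.07 (-0.14 to -0.01). Bambi had 60.9 CPM in the knock-in and 42.1 CPM in the wild-type library (0.53, 0.44 to 0.62). Of 8 measured ligands 1 was higher and 4 were lower, against 7.77% of all genes as higher and 6.72% as lower. Bmp4 had 185 CPM in the knock-in and 140 CPM in the wild-type library (0.40, 0.35 to 0.45), and Bmp3 22.4 CPM in the knock-in and 47.5 CPM in the wild-type library (-1.09, -1.21 to -0.97). Whether the ratios of Id1, Id4, Smad7 and Atoh8 differ between smooth muscle-like and fibroblast-like cells was not tested, as each class has 1 library per genotype.

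**Figure D5:**
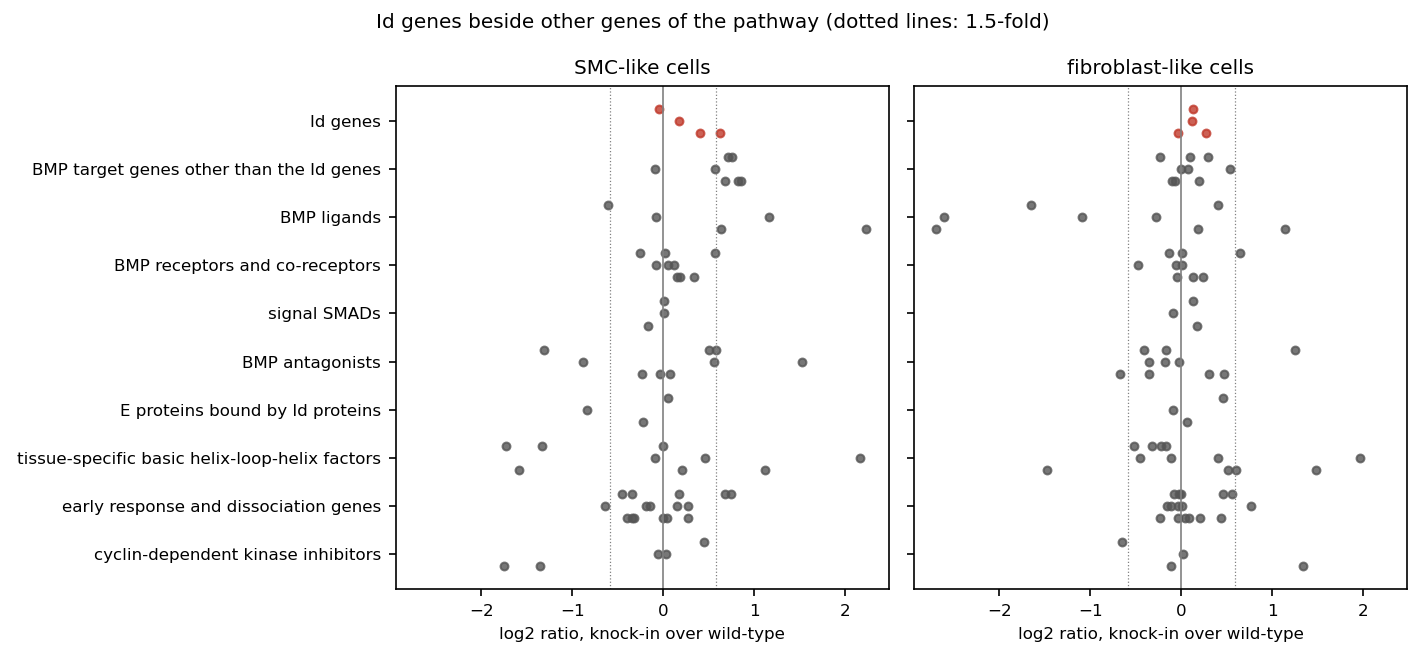
Log2 ratio of knock-in over wild-type CPM (x axis) for every measured gene of each list (rows) in smooth muscle-like (left) and fibroblast-like cells (right); red points are the Id genes, dotted lines mark 1.5-fold. Of the 7 measured other BMP targets of smooth muscle-like cells, 5 lie beyond the right dotted line, against 0 of 9 in fibroblast-like cells, while all 9 receptors of smooth muscle-like cells lie between the lines.

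Other programmes differed between the libraries too. Of 15 circadian clock genes, 11 were at least 1.5-fold higher and 3 lower in knock-in smooth muscle-like cells, with a median of 1.76. Dbp, an output of the clock, had 235 CPM in the knock-in and 6.87 CPM in the wild-type library, and Arntl, its driver, 2.44 CPM in the knock-in and 27.3 CPM in the wild-type library. In fibroblast-like cells 10 clock genes were higher and 3 lower. Of 16 early response genes, which respond to tissue dissociation, 2 were higher and 1 lower in smooth muscle-like cells, with a median of -0.07. Fos had 3650 CPM in the knock-in and 4148 CPM in the wild-type library, and Nr4a1 301 CPM in the knock-in and 179 CPM in the wild-type library (0.75, 0.65 to 0.85). The part of these differences in the Id ratios was not tested.

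Within each library, cells that held a UMI of a member were set beside cells of the same class that did not. Which cells held one was decided after each cell was thinned to 5000 UMIs, in a draw other than that of the shares above. The other genes were compared on the full counts of these cells, so their differences were not brought to equal depth. Smooth muscle-like cells with an Id1 UMI numbered 1113 in the knock-in and 106 in the wild-type library. Smad6 was higher in them than in cells without by 0.54 log2 units in the knock-in and 0.59 in the wild-type library. Smad7 was higher by 0.42 in the knock-in and 0.32 in the wild-type library. Neither gene reached 1.5-fold in both libraries. Of 16 early response genes, 13 were likewise above 0 in both libraries, and 0 reached 1.5-fold in both. Sparcl1 and Kitl were the only 2 of 7661 genes at least 1.5-fold higher in both libraries, by 0.69 and 0.64 in the knock-in and 0.84 and 0.80 in the wild-type cells, and 4 genes were lower in both. For Id4, 7 genes were higher and 9 lower in both libraries, with Acan among the higher, which encodes aggrecan, at 0.73 in the knock-in and 1.07 in the wild-type cells. In fibroblast-like cells, those with an Id3 UMI (1970 knock-in and 2355 wild-type cells) had more early response RNA: 11 of 16 early response genes were at least 1.5-fold higher in both libraries. Of all 11171 genes compared, 347 were higher and 519 lower by that measure. Fos was higher by 1.22 in the knock-in and 0.75 in the wild-type cells, and Nr4a1 by 1.48 in the knock-in and 1.10 in the wild-type cells. Tmem100 stood at -2.06 in the knock-in and -1.46 in the wild-type cells. Only 126 knock-in and 157 wild-type fibroblast-like cells had no Id3 UMI after thinning. In another draw, 35 of 55 knock-in and 100 of 126 wild-type Cd55-led cells held an Id3 UMI. In the Pex5l-led cluster 1220 of 1300 knock-in and 1285 of 1339 wild-type cells did. Early response genes summed to 9507 CPM (knock-in) and 12579 CPM (wild-type) in the Cd55-led cluster, and to 21599.5 and 19079 CPM in the Pex5l-led cluster. The part of cluster make-up in the fibroblast-like differences was not tested. Among smooth muscle-like cells, 1 early response gene passed in both libraries for Id3 and 0 for Id1, Id2 or Id4.

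The genes whose levels followed each member most closely were sought over 18 profiles, each a cluster in a library with at least 50 cells, among 6492 genes. For Id1 they were Tm4sf1, Emp2, Slc44a2, Cav1 and Foxc1, with Pearson r of log2(CPM + 1) between 0.93 and 0.97. For Id2 they were Fgl2, Fblim1, Pde4b, Fry and Pdgfa, with r between 0.86 and 0.92. For Id3 they included Bgn, Cdc42ep5, Ginm1 and Plpp1, with r between 0.94 and 0.96. For Id4 they were Dkk3, Cacna2d1, Twsg1, Fxyd1 and Jam3, with r between 0.94 and 0.97. Among the members, Id1 and Id3 were most alike, with r of 0.84, followed by Id3 and Id4 with 0.76 and Id1 and Id4 with 0.66. Id2 stood apart, with r of 0.49 to Id1, 0.31 to Id4 and 0.29 to Id3. The macrophage or monocyte-like profiles lay below every other profile for Id1, at 3.29 CPM in the knock-in and 2.21 CPM in the wild-type library. The same held for Id3, at 38.7 and 59.4 CPM, but not for Id2, at 172 and 135 CPM. The weight of these profiles in r was not tested. All profiles share 2 libraries and their clusters, so r is a description and carries no p-value.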

How the data were processed

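The deposited files hold, for each of 2 libraries, UMI counts per gene and barcode which per the file headers the authors made using Cell Ranger 7.1.0. The genome build behind the counts was not given in the sources used here. From these counts, barcodes of 1000 or more UMIs and 500 or more genes were kept where mitochondrial UMIs were 10% or less. Doublets were scored with scrublet, and the highest scoring 0.8% per 1000 cells of each library were removed (330 in the knock-in and 109 in the wild-type library), since the automatic threshold marked only 8 and 6 cells. The cells of both libraries were then clustered jointly, with no integration (scanpy 1.11.5, Leiden in igraph 0.11.9): counts per 10000, logarithm, 2000 variable genes, 30 components, 15 neighbours, resolution 0.5. Mitochondrial, ribosomal, hemoglobin and sex-linked genes, Mgp and the Id genes were left out of the clustering. Clusters were named from 20 marker lists, with at least 3 markers at 20 CPM or more, so the names were rebuilt here and do not come from the authors. A cluster far shallower than the median of its library, with no marker of its type among its 10 leading genes, was left unnamed. A class is described between libraries where each holds at least 40 cells.

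Levels are summed UMIs per 1000000 UMIs of the same cells, with exact Poisson 95% intervals. Ratios have exact conditional binomial intervals and shares of cells exact Clopper-Pearson intervals. A gene was measured in a class with at least 50 UMIs over both libraries, and counted as higher or lower from 1.5-fold. A count of 0 was read as allowing up to 3 counts. Free RNA was taken from barcodes of 1 to 100 UMIs, and its share in a class was the largest that markers of other cell types allowed. With 1 library per genotype there was no test. The ratio intervals and the 1.5-fold calls were checked on simulated counts with counting error only, and the thinning on its mean. Such counts lack the wider spread among real cells. Clustering, naming, doublet removal and free RNA subtraction were not checked in this way. The software was Python 3.11.15, numpy 2.4.6, scipy 1.17.1, pandas 2.3.3 and matplotlib 3.10.9.

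The members and the gene lists were chosen with earlier results of these data known. From each list the 2 to 4 members with the most UMIs in a class were named. Smad6, Atoh8, Msx1, Hey1, Twsg1, Hey2, Scx, Cdkn1a, Fst, Chrdl1, Tcf3, Nr4a1, Dbp, Arntl and the genes set beside cells with an Id UMI were named after their values were seen where they fall outside this rule. The posterior Hox and T cell marker subsets and the joining of the smooth muscle-like class with the Sncg-led cluster were likewise chosen after seeing the data. Other alternatives were other UMI minimums, scaling, clustering settings, doublet handling, thinning depths, and subsets by sex and depth.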

Additional observations from a re-analysis of the deposited data

Results flagged for a closer look

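The ratio of knock-in over wild-type levels of 2 members pointed opposite ways in different cells, with intervals on both sides of 0. Each cell class has 1 library per genotype, so the differences between classes were not tested. Id3 stood at 0.13 in fibroblast-like cells, at -0.31 in endothelial-like cells and at -0.62 in macrophage or monocyte-like cells. In some depth bands the sign differed from that of the class. Id3 stood at -0.06 in fibroblast-like cells of 8000 to 20000 UMIs and at -0.42 in deeper ones. In macrophage or monocyte-like cells over 20000 UMIs it stood at 0.30, with an interval that includes 0. The part of depth in these signs was not tested. Among fibroblast-like clusters, Id3 stood at 0.09 in the cluster led by Pex5l, Fmod and Ccn5 and at 0.18 in the cluster led by Igfbp6, Ly6a and Hmcn2, but at -0.84 in the cluster led by Cd55, Nav3 and Aldh1a3. Id1 stood at -0.23 in the Pex5l-led cluster, at 0.22 in the Igfbp6-led cluster and at 1.05 in the Cd55-led cluster, the last on 40 knock-in and 49 wild-type UMIs. At finer clustering the cluster led by the same genes as the Cd55-led one gave -1.53 (-3.22 to -0.21) for Id1, on 5 knock-in and 47 wild-type UMIs.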

How the results depend on the processing

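In smooth muscle-like cells the log2 ratios of Id1, Id2 and Id4 were above 0 in the 15 alternatives tabulated for this class, at 0.24 to 1.14, 0.07 to 0.25 and 0.03 to 0.69, and that of Id3 ranged from -0.15 to 0.33. Other subsets went beyond these ranges: Id4 was -0.34 in cells under 8000 UMIs, 9 of them wild-type, and 0.82 over 20000 UMIs, and Id1 was 0.08 in the Kctd16-led cells. Id2 was -0.39 under 8000 UMIs and -0.23 in the Cdh6-led cells. With cells of 8000 to 20000 UMIs, Id1 was 0.27 and Id2 0.067. With the libraries clustered separately, Id1 was 0.24, Id3 -0.15 and Id4 0.40. Male cells gave 0.25 for Id1. Cells with a posterior Hox UMI gave 1.14 for Id1, 0.33 for Id3 and 0.031 for Id4. In fibroblast-like cells the sign of every member depended on the choice. Separate clustering gave 0.12 for Id1, -0.033 for Id2 and 0.0775 for Id3. The largest cluster alone gave -0.23 for Id1, 0.0854 for Id3 and -0.046 for Id4. Male cells gave 0.10 for Id1, 0.17 for Id2 and 0.60 for Id4, and female cells -0.21 for Id1, -0.019 for Id2, 0.0848 for Id3 and -0.0476 for Id4. Cells with a posterior Hox UMI gave 0.24 for Id1, -0.22 for Id2, -0.15 for Id3 and -0.092 for Id4. Id3 was -0.064 in cells of 8000 to 20000 UMIs, 0.21 without doublet removal and 0.20 with the Id genes kept for clustering. The mean of each cell's own CPM gave -0.12 for Id1 and 0.21 for Id3, and scaling by the median ratio 0.17 for Id2 and 0.18 for Id3. In macrophage or monocyte-like cells Id2 was -0.052 in female cells, and Id3 was -1.001 to -0.23 in 13 alternatives. Over 20000 UMIs, with 19 knock-in and 71 wild-type cells, Id3 was 0.30 and Id2 -1.01. In the cycling cluster without T cell marker UMIs, Id1 was 0.077, Id2 0.22 and Id4 0.38. With a minimum of 10 UMIs, 3648 genes of smooth muscle-like and 3861 of fibroblast-like cells passed 1.5-fold. With 50 UMIs these numbers were 1889 and 2032. The cause was not tested for any of these. Endothelial-like cells gave no value with separate clustering, since the wild-type cluster stayed unnamed. Depth left Id4 with 2 UMIs in each library's endothelial-like cells and Id1 with 12 in each library's macrophages, too few for a ratio. No paired analysis was possible because each genotype has 1 library and the labels give no replicate numbers.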
